A study of Mus musculus with 2 samples.

Results

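Plasminogen activation was examined through 7 genes of the deposited table, which lists 16040 genes in all. They were taken by symbol: the activators Plau and Plat, the receptor Plaur, the serpins Serpine2 and Serpinb2, the related serpin Serpinf1, and the surface protease Fap. The cells were lung fibroblasts of mice of the Col1a2-EGFP strain, which carry a green fluorescent reporter driven by a type I collagen gene. One group received saline and the other bleomycin into the trachea, and lungs were taken at day 14. Each group is 1 library made from cells of 3 mice, sorted as reporter-positive and lineage-negative, so the 3 mice cannot be told apart. The ages of the mice and the lineage markers of the sort are not given in the sources used here.

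Plasminogen activation turns an abundant, inactive blood protein into plasmin, a serine protease that dissolves fibrin and cleaves matrix proteins. Urokinase (Plau) and tissue-type activator (Plat) make plasmin, the receptor Plaur holds urokinase at the cell surface, and serpins trap the activators in stable complexes that cells clear through receptors of the LDL receptor family. In the lung, this system is best known for removing the fibrin that forms in the airspaces after injury.

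The libraries hold counts of short 3′ tags (serial analysis of gene expression, SAGE), 1080798 for saline and 1099840 for bleomycin. Scaled to the library total (CPM), a single count is worth 0.925 for saline and 0.909 for bleomycin. A count of 0 allows up to 3 counts, or 2.78 and 2.73 CPM. All 10 fibroblast markers looked for were present. Of these, Col1a1, Col1a2 and Thy1 were called higher and Dcn lower in the bleomycin library, by the rule given below. Markers of other cells were examined as lists. The 15 endothelial markers summed to 633 saline and 91 bleomycin counts. The 12 macrophage and monocyte markers summed to 8 and 12 counts, the 4 neutrophil markers to 3 and 6, the 7 mesothelial markers to 241 and 172, and the 11 epithelial markers to 219 and 35. The 11 smooth muscle and pericyte markers summed to 1120 and 1076 counts. Of the 10 of them tested, 5 were called lower (Myh11, Cnn1, Hhip, Higd1b and Cox4i2) and 1, Des, higher, with a median log2 ratio of −0.996. Immediate early genes, which rise when tissue is dissociated, summed to 34823 and 16134 counts over 17 genes. Of these, 7 were called lower and 0 higher. Over all genes tested, 8.52% were called lower and 8.08% higher, with a median log2 ratio of 0.02. The part of the other cell types and of dissociation in the results below was not tested.

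SAGE reads a transcript from its last CATG site, so a single short stretch stands for each gene. Stretches for the 7 genes are shown because counts are read from such stretches, although that of Serpine2 is not at its last site. They come from the GENCODE transcripts paired with the RefSeq records named in the table, with the site in capitals and 21 further bases, 5′ to 3′, at GRCm38 positions. All 7 genes were matched.
Plau, chr14:20843095-20843119, plus strand: CATGtgatgctccacgtgaatgtat
Plat, chr8:22782608-22782632, plus strand: CATGcactccccatccctccacact
Plaur, chr7:24475856-24475880, plus strand: CATGtagccctagctgccctggaac
Serpine2, chr1:79794329-79794353, minus strand: CATGtgttcactaaaataaagttgg
Serpinb2, chr1:107525482-107525506, plus strand: CATGcttacttacacactgctatct
Serpinf1, chr11:75409926-75409950, minus strand: CATGaacgggctctgcttaagctct
Fap, chr2:62501101-62501125, minus strand: CATGaatattgtaaaagccgctaaa
Each lies in the 3′ untranslated region of its gene, between 111 bases (Serpinb2) and 291 bases (Plau) from the transcript's end. In Serpine2 the very last site is too close to the annotated end for a full tag, so the preceding site is shown. Its counts may have been read from the last site instead, which was not examined. No stretch shown for the 7 genes occurs in an annotated transcript of another gene, in either orientation. Some coding transcripts of Serpine2, Serpinf1 and Fap end elsewhere, and the coding transcripts of each of these genes give 3 different expected tags in all. The table gives counts per gene and not per tag, so which tags were counted is not known here.

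The genes split by direction in the bleomycin library. The inhibitor gene Serpine2 was 4.45-fold higher, whereas the activator gene Plat was 2.44-fold lower and Serpinf1 was 3.20-fold lower. The receptor gene Plaur was tested and not called, and Plau, Serpinb2 and Fap were too rare to test. A gene was called when an exact binomial test of its counts had an adjusted p under 0.05 (Benjamini-Hochberg, over 9369 genes with at least 10 counts) and its ratio was at least 2. Of the 7 genes, 4 were tested, 1 was called higher and 2 lower. Over all genes tested, 16.6% were called, 8.08% higher and 8.52% lower. Because each group is 1 library, no replicate check exists for any of these differences, and the test compares the libraries and not the conditions. Fewer cells of a type and less RNA per cell cannot be told apart in such sorted bulk samples.

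**Figure D1:**
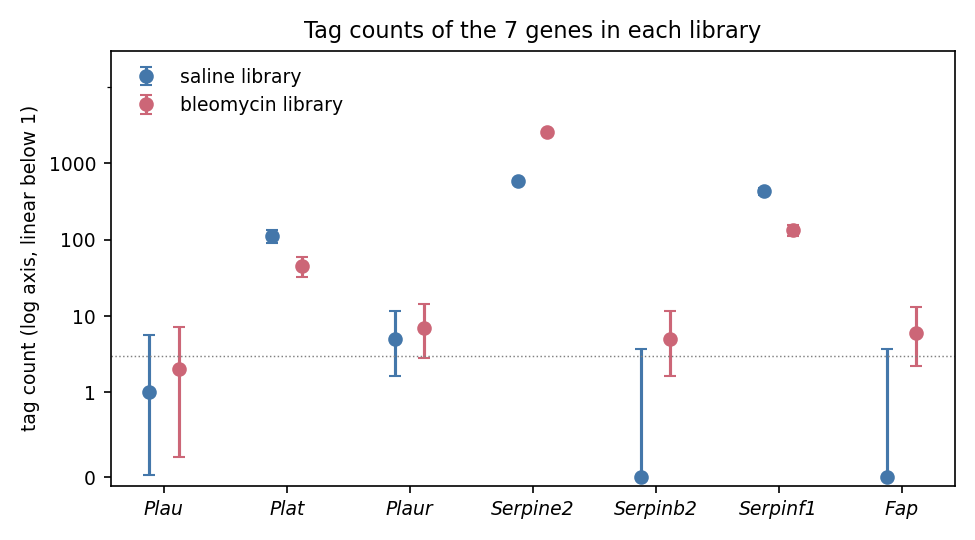
Tag counts of the 7 genes in the saline (blue) and bleomycin (red) libraries on a log axis that is linear below 1. Bars are exact Poisson 95% intervals, which cover counting error only, and the dotted line marks the floor of 3 counts. The intervals of the libraries are apart for Plat, Serpine2 and Serpinf1 and overlap for Plau, Plaur, Serpinb2 and Fap.

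Of the activators, Plat had enough tags to be tested and was called lower. Plat, which encodes the tissue-type activator that works mainly on fibrin, had 111 saline counts (103 CPM) and 45 bleomycin counts (40.9 CPM). The Poisson intervals of these counts, 91.3 to 134 and 32.8 to 60.2, do not overlap. Plat was 2.44-fold lower with an exact 95% interval of 1.71 to 3.53, a log2 ratio of −1.28 and an adjusted p of 1.74e-06 in the exact binomial test. Of 2496 tested genes whose summed count lay within a factor of 2 of that of Plat, 126 had a lower ratio. Endothelium also makes tissue-type activator, and 11 of the 12 endothelial markers tested were called lower, with 0 higher and a median log2 ratio of −3.67. The other, Plvap, had 82 and 55 counts. For comparison, 8.52% of all genes tested were called lower, and their median log2 ratio was 0.02. Summed, the endothelial markers stood at 586 CPM with saline and 82.7 CPM with bleomycin, with Pecam1 at 53 and 3 counts and Cdh5 at 11 and 1, and Emcn at 0 in both. Their part in the Plat result, and that of the smooth muscle and pericyte markers given above, was not tested.

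Plau, the gene of urokinase, which activates plasminogen at the cell surface, had 1 saline count and 2 bleomycin counts. Both lie under the floor of 3 counts, so no ratio is given. The Poisson intervals reach 5.57 and 7.22 counts, which is 5.16 and 6.57 CPM. A difference in Plau between the libraries was not detectable at this depth.

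The receptor gene was also close to the limit of detection. Plaur, whose product is anchored in the membrane by a lipid and binds urokinase, had 5 saline and 7 bleomycin counts (4.63 and 6.36 CPM). Its ratio of 1.42 has an interval of 0.387 to 5.66, and the adjusted p was 0.756 in the exact binomial test. That interval holds ratios past the limit of 2 in both directions. Macrophages are a known source of Plaur and Serpinb2, and 0 of the 12 macrophage and monocyte markers in the table reached 10 counts. The leukocyte gene Ptprc had 0 and 1 counts, and Emr1, Marco, Siglec5 and C1qc were at 0 in both libraries. The part of macrophages in the Plaur and Serpinb2 counts was not tested.

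Among the inhibitors, Serpine2 was called higher. It encodes protease nexin-1, a cell- and matrix-bound serpin that inhibits thrombin, urokinase and tissue-type activator. It had 581 saline counts (538 CPM) and 2558 bleomycin counts (2326 CPM). The counts have Poisson intervals of 535 to 630.2 and 2460 to 2659, far from overlapping. Serpine2 was 4.45-fold higher, with an interval of 4.07 to 4.88, a log2 ratio of 2.15 and an adjusted p of 3.81e-296 in the exact binomial test. That p reflects the number of tags and not agreement between animals. Of 178 tested genes with a summed count within a factor of 2 of that of Serpine2, 5 had a higher ratio. Over all genes tested, 270 of 9369 had a higher ratio.

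Serpinb2, the gene of plasminogen activator inhibitor type 2, a serpin that is largely kept inside cells, had 0 saline and 5 bleomycin counts. Set against the floor of 3 counts, Serpinb2 was 1.69-fold higher. An exact interval that allows for counting error on both sides starts at 0.927 and so includes equal levels. Across the table, 57 genes had 0 saline and 5 bleomycin counts, and 43 had the opposite. With no minimum count the adjusted p of Serpinb2 was 0.130 in the exact binomial test, so it was not called there either.

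Serpinf1 went the other way from Serpine2. It encodes pigment epithelium-derived factor, a secreted serpin that does not inhibit proteases and is known for limiting the growth of blood vessels. It had 430 saline counts (398 CPM) and 133 bleomycin counts (121 CPM). The Poisson intervals, 390.3 to 473 and 111 to 158, do not overlap. Serpinf1 was 3.20-fold lower, with an interval of 2.63 to 3.91, a log2 ratio of −1.67 and an adjusted p of 3.82e-35 in the exact binomial test. Of the 10 smooth muscle and pericyte markers tested, 5 were called lower and 1, Des, higher (169 to 571 counts). For comparison, 8.52% of all genes tested were called lower and 8.08% higher. The smooth muscle and pericyte list as a whole went from 1120 to 1076 counts, and its part in the Serpinf1 result was not tested. Of 880 tested genes within a factor of 2 of the summed count of Serpinf1, 36 had a lower ratio. Proteins reported to bind its product at the cell surface gave no call among 4 genes tested, beside 16.6% called over all genes tested. The median log2 ratio of the 4 was −0.23, beside 0.02 over all genes tested. Of these 4, the one with the most counts, Rpsa, is also a ribosomal protein gene and so may share tags with close copies. Rpsa went from 2102 to 2500 counts, a ratio of 1.20 (1.13 to 1.28). In the other direction, Plxdc2 went from 758 to 423 counts and Pnpla2 from 72 to 44, ratios of 0.564 (0.4999 to 0.636) and 0.618 (0.415 to 0.912). Lrp6 had 12 and 14 counts, and Plxdc2, Pnpla2 and Lrp6 were chosen after their values were seen.

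Fap encodes a membrane-bound serine protease that cleaves after proline and is widely used to mark activated fibroblasts. A soluble form of it trims the plasmin inhibitor alpha-2-antiplasmin. Fap had 0 saline and 6 bleomycin counts (0 and 5.46 CPM). Against the floor of 3 counts Fap was 2.02-fold higher, and the exact interval starts at 1.19. There were 45 genes with 0 saline and 6 bleomycin counts and 20 with the opposite, so a pattern like that of Fap was more frequent in this direction. Fap had too few counts to be tested, and with no minimum count its adjusted p was 0.0761 in the exact binomial test. Of 6 other dipeptidyl and prolyl peptidase genes tested, 1 was called lower and 0 higher, a share near the 16.6% called over all genes. Their median log2 ratio was 0.06, beside 0.02 over all genes tested. The called gene was Dpp4, the closest relative of Fap, which had 13 saline and 0 bleomycin counts. Set against the floor of 3 counts, Dpp4 was 4.28-fold lower, and the exact interval of that fall starts at 3.01. Dpp4 lost its call with Bonferroni adjustment (adjusted p = 1) and with an assumed coefficient of variation of 0.4 in edgeR's exact test (adjusted p = 0.338), and a minimum of 50 counts removed it. Dpp3, which had the most counts among those not called, had a ratio of 1.27 (0.865 to 1.87) from 51 and 64 counts.

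The tested genes of the set could be compared with each other without any scaling of the libraries, since both genes of a pair share the library sizes. For each of the 6 pairs of tested genes, the ratio of their bleomycin-to-saline ratios was computed with its exact 95% interval, and 3 intervals did not include 1. The ratio of Serpine2 exceeded that of Plat by 10.8-fold (7.51 to 15.9), a difference between an inhibitor and an activator that it inhibits. Serpine2 exceeded Serpinf1 by 14.2-fold (11.4 to 17.8), so the related serpins differed from each other as well. Plaur exceeded Serpinf1 by 4.51-fold (1.21 to 18.3), although Plaur itself was not called. Plat and Serpinf1, both called lower, had ratios that differed by 1.31-fold (0.859 to 1.98), which includes equal falls. The intervals of Plaur against Plat (0.883 to 14.4) and of Serpine2 against Plaur (0.784 to 11.6) also include 1.

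**Figure D2:**
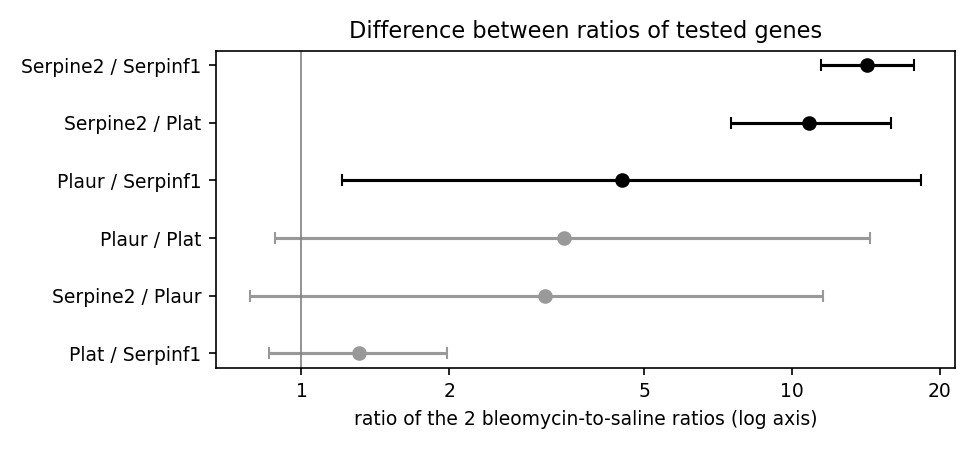
Ratio of the bleomycin-to-saline ratios for each of the 6 pairs of tested genes, on a log axis, with exact 95% intervals as bars. The first gene of a pair is the one with the higher ratio, and black points mark the 3 pairs whose interval does not include 1. The longest bars belong to Plaur, which had 12 counts in all.

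**Figure D3:**
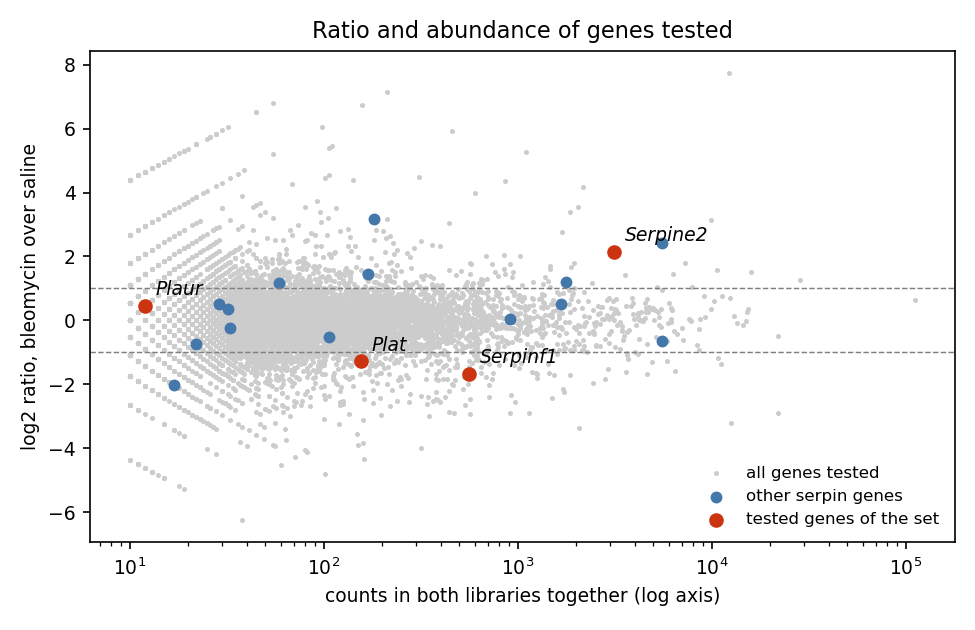
Log2 ratio of bleomycin over saline against the counts of both libraries together (log axis) for all 9369 genes tested (grey), other serpin genes (blue) and the 4 tested genes of the set (red). Dashed lines mark a ratio of 2 in either direction. Serpine2 lies above the upper line and Plat and Serpinf1 lie below the lower line, while Plaur lies between the lines at the left edge.

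The wider plasminogen system was described from a list of 22 genes, of which 16 were in the table and 12 had at least 10 counts. The list includes Plau, Plat, Plaur, Serpine2 and Serpinb2. Of the 12 genes tested, 2 were called higher and 2 lower, and 8 were not called. For comparison, 8.08% of all genes tested were called higher and 8.52% lower. The median log2 ratio of the 12 genes was 0.32, beside 0.02 over all genes tested. Serpine2 was among the genes called higher, and Plat and Vldlr were the genes called lower.

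Of the genes on the list that encode receptors taking up complexes of serpins and proteases, Vldlr was called lower and Lrp1 was not called. Vldlr, the very low density lipoprotein receptor, was 3.07-fold lower (2.13 to 4.49), at 124 saline and 40 bleomycin counts. Lrp1, the large receptor that takes up such complexes and the gene of the list with the most counts that was not called, had 1217 and 633 counts. Its ratio of 0.526 (0.477 to 0.580) stayed short of the required 2-fold change. Anxa2 and S100a10, which form a plasminogen-binding complex on cell surfaces and were chosen after their values were seen, had ratios of 1.76 (1.59 to 1.95) and 1.12 (0.984 to 1.27), and neither was called.

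Genes of blood coagulation, which makes the fibrin that plasmin removes, were examined next. Of 8 tested, 1 was called lower and 0 higher, a share near the 16.6% called over all genes, and their median log2 ratio was −0.21. The called gene was Thbd, thrombomodulin, a surface receptor that turns thrombin into an anticoagulant. Thbd was 4.73-fold lower (4.17 to 5.37), at 1429 saline and 299 bleomycin counts. Endothelium is a main source of thrombomodulin, and the endothelial markers, as given above, summed to 586 and 82.7 CPM. Their part in the Thbd and Vldlr results, and that of the smooth muscle and pericyte markers, was not tested. Gas6, a vitamin K-dependent growth factor related to protein S and the gene with the most counts that was not called, had a ratio of 1.24 (1.12 to 1.38) from 704 and 866 counts.

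The serpin family, to which 3 of the 7 genes belong, gave calls in both directions. Of 26 serpin genes in the table, 16 were tested, 6 were called higher and 2 lower, and 8 were not called. Over all genes tested, 8.08% were called higher and 8.52% lower. The median log2 ratio of the tested serpins was 0.43, beside 0.02 over all genes tested. Besides Serpine2, the genes called higher included 4 of the Serpina3 cluster, relatives of human antichymotrypsin that are known as acute phase genes. Serpina3i had 880 and 4641 counts and was 5.33-fold higher (4.96 to 5.74). Serpina3m had 18 and 164 counts and was 9.21-fold higher (5.65 to 15.9). Serpina3n had 46 and 124 counts and was 2.73-fold higher (1.93 to 3.91). Serpina3h, outside the naming rule and chosen after its values were seen, had 18 and 41 counts and was 2.30-fold higher (1.29 to 4.26). Serpina3h lost its call with Bonferroni adjustment (adjusted p = 1), with a required ratio of 3, and with an assumed coefficient of variation of 0.2 (adjusted p = 0.292) or 0.4 (adjusted p = 1) in edgeR's exact test. These genes are close copies, and the expected tag of Serpina3n also occurs in transcripts of Serpina3g and Serpina3i, so the split of counts among them is uncertain.

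Besides Serpinf1, the serpin called lower was Serpinb1a, an inhibitor of neutrophil proteases that was chosen after its values were seen. Serpinb1a was 4.61-fold lower (1.29 to 25) from 14 and 3 counts, with an adjusted p of 0.0464 in the exact binomial test. With no minimum count, the adjusted p of Serpinb1a was 0.0671. Bonferroni adjustment (adjusted p = 1) and an assumed coefficient of variation of 0.2 in edgeR's exact test (adjusted p = 0.226) also ended its call. Serping1, the inhibitor of complement C1, had the most counts of the serpins not called, 3378 and 2149, with a ratio of 0.643 (0.609 to 0.679). Of the called serpins named here, Serpine2 and the Serpina3 genes were higher, and Serpinf1 and Serpinb1a were lower. With 2 libraries, such shared directions do not measure likeness between genes.

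**Figure D4:**
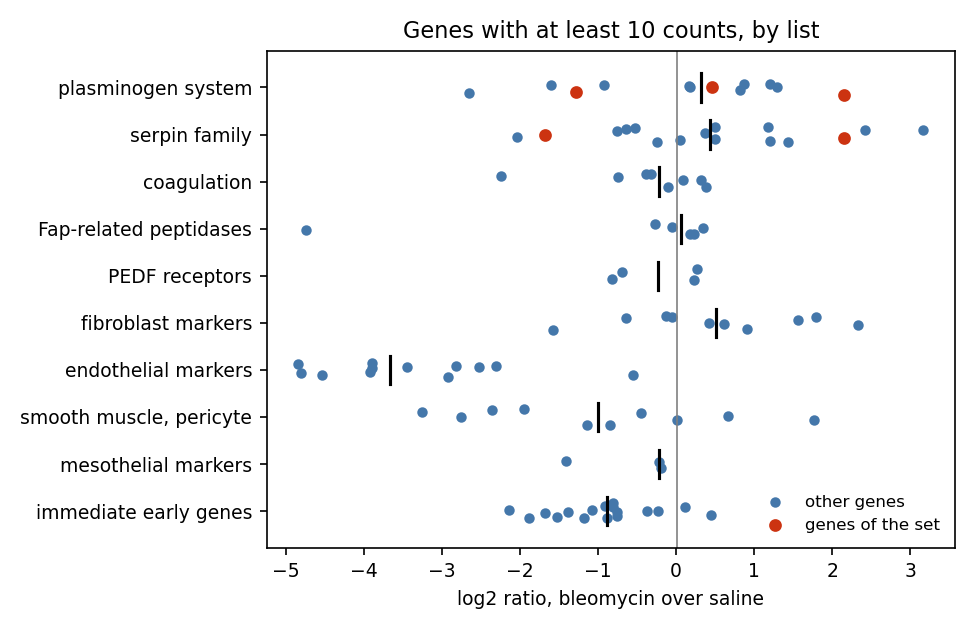
Log2 ratio of bleomycin over saline for genes with at least 10 counts, by list, with genes of the set in red, other genes in blue and a black bar at each list's median. The grey line is the median of all genes tested, 0.02. The endothelial median of −3.67 lies furthest to the left, and immediate early genes have a median of −0.88.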

How the data were processed

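The deposited table gives whole-number tag counts per gene for 2 SOLiD SAGE libraries. Per the labels' protocols, lungs were dissociated with proteases, reporter-positive cells were sorted and 3′ tag libraries were made from total RNA. Per the submitters' processing notes, BWA 0.6.2 and mm9 were used, with no role given. How tags were assigned, whether strand was used and whether counts were scaled before deposit are not given in the sources used here. If they were scaled, the intervals and tests do not hold. Since no molecular identifiers are named, counting error is all that intervals and floors cover.

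After 1 blank row was left out, libraries were scaled with TMM in edgeR 4.0.16 (R 4.3.3), and the factors were 1.01 (saline) and 0.986 (bleomycin). Without replicates edgeR's quasi-likelihood test cannot be run, so a two-sided exact binomial test was applied to every gene with at least 10 counts in all. Log2 ratios, also used for the limit of 2, have 0.5 added to each count. Intervals of ratios are exact Clopper-Pearson 95% intervals. The test was first tried on simulated counts with counting error only, which cannot show how it behaves with spread between preparations. Marker and pathway lists were described by counts and medians, with no set test. Expected tags are the last CATG that is followed by 21 bases within the annotated transcript. GENCODE positions are on GRCm38, a later build than mm9. The CPM values use total counts.

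The members and lists were chosen with earlier results of these data known. Text names all 7 members, every called gene of each pathway or serpin list (up to 6 by adjusted p) and the one with the most counts that was not called. A gene that this rule takes is not reported here, though list counts include it. With 2 libraries, no likeness of pattern between genes could be measured. Tests ran in scipy 1.17.1 and plots in matplotlib 3.10.9, under Python 3.11.15 with pandas 2.3.3 and numpy 2.4.6. Alternatives were other scalings (total counts, DESeq2 1.42.0 size factors, upper quartile), count minimums, ratio limits, Bonferroni adjustment, a prior count of 5, and edgeR's exact test with an assumed coefficient of variation.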

Additional observations from a re-analysis of the deposited data

How the results depend on the processing

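Serpine2 kept its direction and its call under all alternatives but 1, and Serpinf1 likewise. With an assumed coefficient of variation of 0.4 between preparations, in edgeR's exact test, neither was called (adjusted p = 0.449 and 0.899, at unchanged log2 ratios of 2.15 and −1.67). With 0.2 both were called (adjusted p = 6.12e-05 and 0.00566). Plat (log2 ratio −1.28) lost its call with 0.2 (adjusted p = 0.101), with 0.4 (adjusted p = 1) and with a required ratio of 3. No gene called in the pathway and serpin lists kept its call with 0.4, and Serpina3n also lost its call with a required ratio of 3. Plaur was not called under any alternative that tested it, and a minimum of 50 counts removed it. Over all genes, 757 were called higher and 798 lower. These became 396 and 484 with at least 50 counts, 443 and 445 with a ratio of 3, 1295 and 1317 with no ratio needed, and 288 and 333 with Bonferroni adjustment. An assumed coefficient of variation of 0.2 gave 275 and 333, and 0.4 gave 21 and 8. The true spread between preparations is not known from 1 library per group. No paired analysis was possible because each group has 1 library. Depth limits Plau, Plaur, Serpinb2 and Fap, the rarest of the 7 genes.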
